A study of Mus musculus with 16 samples.

Results

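The comparison described here asked whether the genotype of the mice still separated their white adipose tissue (WAT) transcripts once the antagonist NOX_6_18 had been given. It set the 2 WAT libraries labelled CKO and treated with NOX_6_18 against the 2 WAT libraries labelled fl/fl and treated with NOX_6_18, chosen by their titles, so that 4 of the 16 libraries of the series entered it. The whole series covers WAT and liver, 2 genotypes, and vehicle or NOX_6_18, with 2 libraries in each of 8 groups, and was measured by RNA sequencing.

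All animals were C57BL/6, received the diet that the labels call HFD, and carried floxed Gpr132 alleles. The group labelled fl/fl carried the floxed alleles alone (GPR132fl/fl), and the group labelled CKO carried Lyz2_cre in addition. Lyz2 drives Cre in macrophages and other myeloid cells, so that Gpr132 of other cell types keeps its floxed, unrecombined form. The labels name macrophages as the source, while the protocols describe tissue put into liquid nitrogen and lysed in TRIzol. Whether replicates are separate animals is not said, and the p-values below therefore measure only the spread of these libraries, which could be technical.

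GPR132 is a G protein-coupled receptor of the small family of proton-sensing receptors and responds to oxidised fatty acids. It is expressed in macrophages and lymphocytes and signals through G proteins. In the adipose tissue of obese animals, macrophages take up lipid from dying adipocytes and switch on lysosomal and lipid-handling genes.

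The 4 libraries had 52696219 and 58396991 counts (fl/fl) and 57634514 and 56924273 counts (CKO), and between 30688 and 31289 genes with at least 1 count. Mitochondrially encoded transcripts took 3.37% and 3.40% of the counts in fl/fl and 3.27% and 3.21% in CKO. Scaling factors by the trimmed mean of M values (TMM) were 1.03 in each of the 4. Macrophage markers were present in all of them: Adgre1, which encodes the macrophage surface protein F4/80, had 361, 369, 359 and 370 TMM-scaled CPM (counts relative to the size of the library), listed here and below as fl/fl 1, fl/fl 2, CKO 1 and CKO 2. Markers of other cells were present too, with Col1a1 (fibroblast collagen) at 1686, 1693, 1685 and 1791 CPM and Fabp4 (adipocyte and macrophage fatty acid binding protein) at 1225, 1281, 1258 and 1232 CPM. Fabp4 made up most of the summed level of the 16 listed adipocyte genes, at 1819, 1886, 1843 and 1832 CPM. The adipocyte marker Adipoq, given below, was far lower than Fabp4. Prm1, a sperm protamine, was at 132, 133, 140 and 128 CPM. In such mixed samples, fewer cells of a type and less RNA per cell cannot be told apart.

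Gpr132 itself, the targeted gene, was measured first. It had 60.3 and 60.1 CPM in the libraries labelled fl/fl and 56.5 and 59.1 CPM in those labelled CKO. Both CKO libraries lay slightly below both fl/fl libraries, and the nearest pair lay closer together than the CKO replicates. The log2 fold change was -0.06 ± 0.22 (SE), with a 95% interval from -0.57 to 0.45 and an adjusted p of 1 in edgeR's quasi-likelihood test with Benjamini-Hochberg adjustment. The counts are of the whole gene (chromosome 12, 112850873 to 112868228 on the minus strand in GRCm38) and the labels do not say which exons are floxed, so that a deletion of part of the gene need not lower them. Whether the gene was recombined in these libraries, and how much of its RNA came from cells without Cre, was not tested. Lyz2, the lysozyme gene whose promoter drives Cre, had 2038 and 2026 CPM in fl/fl and 2040 and 2022 CPM in CKO. The groups overlapped, and the log2 fold change was -0.00 ± 0.06 (SE; 95% interval -0.13 to 0.13; adjusted p = 1).

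The receptors most closely related to GPR132 gave the same picture, as the plot of receptor levels by library shows. Gpr65, an acid-sensing receptor of immune cells, had 52.0, 50.9, 58.5 and 52.9 CPM, with both CKO libraries above both fl/fl libraries and a log2 fold change of 0.12 ± 0.08 (SE; adjusted p = 1). Gpr4, the acid sensor of endothelial cells, had 16.7, 18.4, 16.8 and 18.5 CPM, and the groups overlapped. None of the 5 measured members of this receptor list was called on NOX_6_18. On vehicle 2 of the 5 were called lower in CKO, beside 12.4% of all fitted genes. Of 21 genes for G proteins, arrestins, exchange factors and regulators of G protein signalling, 0 were called and 1 had an unadjusted p under 0.05. This was Arrb1, which encodes the adaptor beta-arrestin 1, at 161 and 47.4 CPM in fl/fl and 45.7 and 44.3 CPM in CKO. Only fl/fl library 1 stood apart there, and without it the log2 fold change was -0.08. Of 18 enzymes that make or break down oxylipins and eicosanoids, the lipid class that holds ligands of GPR132, 0 were called, and Alox5ap, which presents arachidonic acid to 5-lipoxygenase, had 148, 122, 151 and 151 CPM. Among the 59 fitted genes within 1 Mb of Gpr132 and the 37 within 1 Mb of Lyz2, 0 were called and 0 had an unadjusted p under 0.05.

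**Figure D1:**
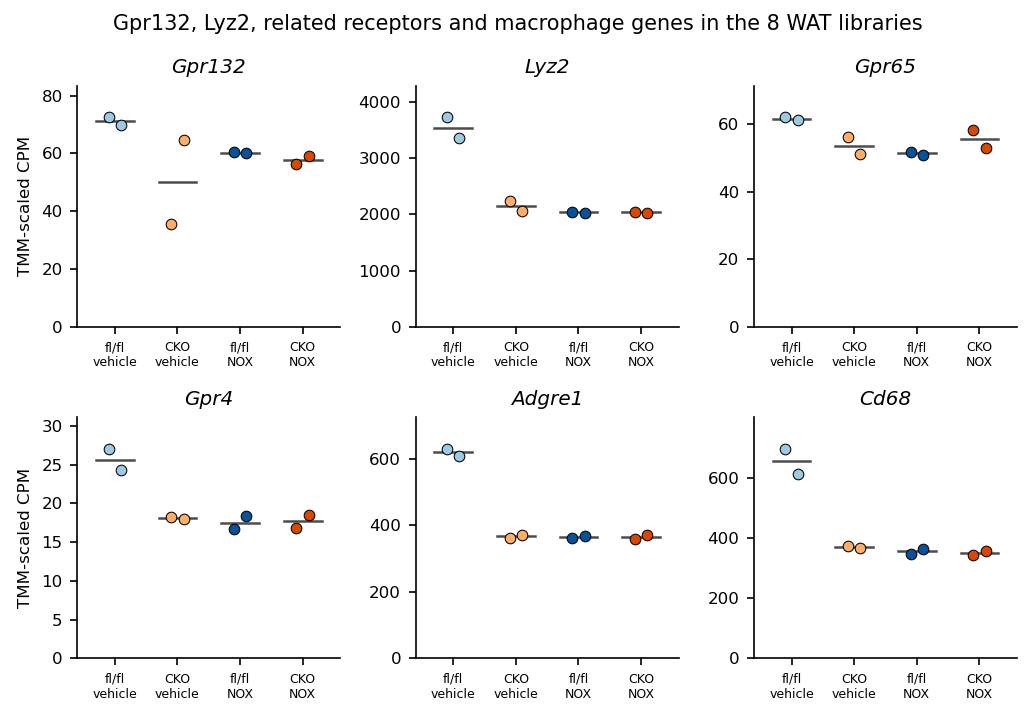
Gpr132, Lyz2, 2 related receptors and the macrophage genes Adgre1 and Cd68 in the 8 WAT libraries. Each point is 1 library in TMM-scaled CPM, bars are group means, and each axis starts at 0. For Lyz2, Adgre1 and Cd68 the libraries on NOX_6_18 lie together whatever the genotype, while the fl/fl libraries on vehicle lie higher.

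Across the transcriptome, 9 of 25871 fitted genes were called between genotypes on NOX_6_18 (edgeR adjusted p under 0.05), which is 0.0348% of those tested. Of these, 4 were higher in CKO (0.0155%) and 5 were lower (0.0193%). DESeq2 called 46 genes on the same counts, including all 9. With 1 library left out edgeR called 17 genes (CKO library 1), 5 (CKO library 2), 23 (fl/fl library 1) or 7 (fl/fl library 2). At an unadjusted p under 0.05 there were 618 genes, or 2.39% of those fitted. This share is below the threshold itself, so that the test may be conservative here, and a gene without a call may still differ. The median log2 fold change over all genes was -0.0005, and the quartiles were -0.13 and 0.13.

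The size of difference these 4 libraries leave room for can be read from the intervals. For 13458 genes at 5 CPM or more in both groups, the median SE of the log2 fold change was 0.12 and the median absolute log2 fold change was 0.06. Of these genes, 12978 (96.4%) had a 95% interval that lay wholly within a 2-fold change in either direction, and for 83% it lay within a 1.5-fold change. The means of the groups differed at least 2-fold for 25 of the 13458 genes. The groups did not overlap for 21 of these 25, of which 5 were called, and over all 13458 genes they did not overlap for 32.4%.

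Distances between libraries of different genotype and between replicates covered overlapping ranges. On log2(CPM + 1) values of the 13458 genes, Pearson's r was 0.98824 between the fl/fl replicates, 0.98846 between the CKO replicates, and from 0.98774 to 0.9902 over the 4 pairs of different genotype. These values are across genes, which are not independent replicates. Genes that differed at least 2-fold numbered 103 between the fl/fl replicates and 84 between the CKO replicates, and 80 to 90 between libraries of different genotype. The pair of fl/fl library 1 and CKO library 2 had the lowest r, below both replicate pairs. All other pairs of different genotype had an r from 0.98863 to 0.9902, above both replicate pairs.

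**Figure D2:**
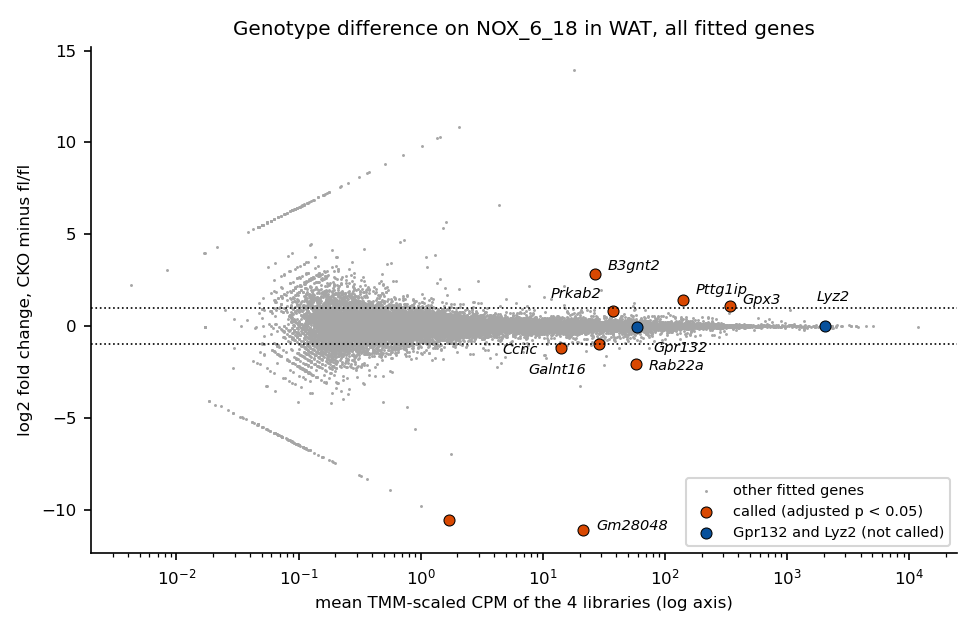
Genotype difference on NOX_6_18 for all fitted genes in WAT, as the log2 fold change (CKO minus fl/fl) against the mean CPM on a log axis. Orange points are the 9 called genes, of which 8 are named, blue points are Gpr132 and Lyz2, and dotted lines mark a 2-fold change. The sloping rows of points at low CPM are genes with 0 counts in 1 of the groups.

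The largest fold change among the called genes was that of Gm28048, 1 of 2 overlapping gene models on chromosome 11, and the other, B3gnt2, was called in the opposite direction. B3gnt2 (ENSMUSG00000051650; GRCm38 chromosome 11, 22759738 to 22860961, minus strand) encodes a glycosyltransferase that extends poly-N-acetyllactosamine chains on glycoproteins. Gm28048 (ENSMUSG00000098650; 22834744 to 22982090, minus strand) is a predicted gene that in GENCODE M21 joins the first exons of the neighbouring Commd1 to the coding exon of B3gnt2. The exon shared by the transcripts B3gnt2-202 and Gm28048-201 runs from 22834747 to 22837195, and its 2449 bases are 80.1% of the first transcript and 89.2% of the second. The splice junctions into this exon are shown because they are what tells the transcripts apart. Each line gives, from the GENCODE M21 transcripts, 20 bases before the junction in capitals and 30 bases after it in lower case, and the third line gives the end of the same upstream exon in Commd1-204.
B3gnt2-202: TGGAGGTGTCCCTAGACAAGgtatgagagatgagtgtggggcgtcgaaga
Gm28048-201: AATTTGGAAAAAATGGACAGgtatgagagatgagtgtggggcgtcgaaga
Commd1-204: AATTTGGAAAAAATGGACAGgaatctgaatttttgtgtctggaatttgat
The lower-case bases are the same in B3gnt2-202 and Gm28048-201, and the capitals are the same in Gm28048-201 and Commd1-204.

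B3gnt2 had 6.86 and 6.28 CPM in fl/fl and 46.9 and 47.1 CPM in CKO. It was higher in both CKO libraries, with a log2 fold change of 2.84 ± 0.13 (SE; adjusted p = 0.000259). Gm28048 went the other way, with 43.1 and 43.0 CPM in fl/fl and 0.0168 and 0.0171 CPM in CKO. These levels rest on 4917 counts over the fl/fl libraries and 2 counts over the CKO libraries, a ratio of 2540 with a 95% counting interval from 702 to 20900 (adjusted p = 9.92e-07). When the counts of both genes were added, the sum was 49.9 and 49.3 CPM in fl/fl and 46.9 and 47.1 CPM in CKO. The summed log2 fold change was -0.08 ± 0.10 (SE; 95% interval -0.32 to 0.16; adjusted p = 1).

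The split between the 2 gene models also differed between replicates of 1 group elsewhere in the series. In liver, Gm28048 took 91.3% and 0.129% of the counts of the pair in the fl/fl libraries on NOX_6_18, and 92.3% and 0.117% in the CKO libraries on NOX_6_18. The sum stayed between 33.1 and 38.6 CPM of the library total over the 8 liver libraries. In WAT on vehicle, Gm28048 had 56.8 and 56.4 CPM in fl/fl and 0.0168 and 0.0575 CPM in CKO, so that both treatments gave the same split by genotype there.

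**Figure D3:**
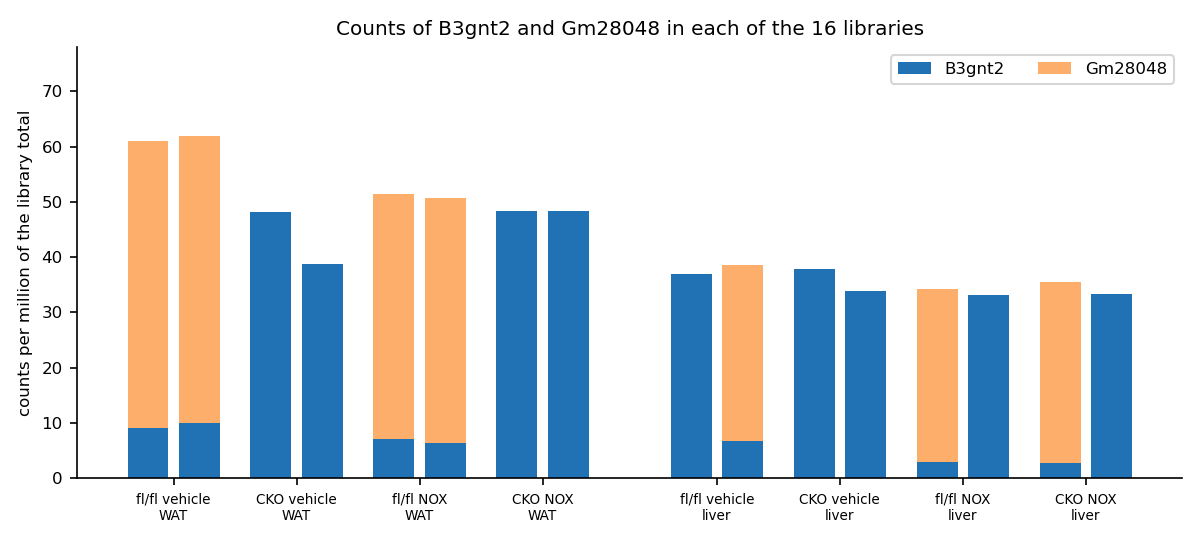
Counts of B3gnt2 (blue) and Gm28048 (orange) stacked for each of the 16 libraries, in CPM of the library total, with 2 bars per group. The height of the whole bar differs little between the 4 WAT libraries on NOX_6_18, while its division differs by genotype in WAT and within groups in liver.

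Pttg1ip (ENSMUSG00000009291; chromosome 10, 77581720 to 77598732, plus strand) encodes a transmembrane protein that binds securin. It had 73.8 and 80.2 CPM in fl/fl and 206 and 203 CPM in CKO, and both CKO libraries were far above both fl/fl libraries. The log2 fold change was 1.41 ± 0.07 (SE; adjusted p = 0.000312). On vehicle the order was turned, with 258 and 241 CPM in fl/fl and 73.8 and 74.1 CPM in CKO. The gene thus lay either between 73.8 and 80.2 CPM or between 203 and 258 CPM in each of the 8 WAT libraries. In liver, replicates of 1 group differed by the same kind of step, with 53.5 and 151 CPM in fl/fl on NOX_6_18 and 117 and 48.1 CPM in fl/fl on vehicle.

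Rab22a (ENSMUSG00000027519; chromosome 2, 173659760 to 173707343, plus strand) encodes a small GTPase of early endosomes. It had 94.5 and 92.2 CPM in fl/fl and 23.0 and 22.2 CPM in CKO, and the CKO libraries were the only low ones of the 8 WAT libraries, since the vehicle libraries had 81.9 to 102 CPM. The log2 fold change was -2.05 ± 0.11 (SE; adjusted p = 0.000345). In liver the gene had 17.5 and 61.9 CPM in the fl/fl replicates on NOX_6_18 and 61.8 and 12.5 CPM in the CKO replicates on vehicle, so that low and high libraries occurred within a group. The liver replicates of CKO on NOX_6_18 were both low, with 13.2 and 9.19 CPM. Against the fl/fl replicates there the log2 fold change was -1.82 ± 0.74 (SE; adjusted p = 1).

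Gpx3 (ENSMUSG00000018339; chromosome 11, 54902453 to 54910377, plus strand) encodes the secreted glutathione peroxidase, a selenoprotein that reduces peroxides and is made in adipose tissue among other places. It had 211 and 221 CPM in fl/fl and 461 and 462 CPM in CKO, and the groups were far apart. The log2 fold change was 1.10 ± 0.09 (SE; adjusted p = 0.0134). The vehicle libraries had 591 and 474 CPM in fl/fl and 545 and 550 CPM in CKO, so that the fl/fl libraries on NOX_6_18 were the low ones of the 8. No exon of Gpx3 overlaps another gene, and its liver replicates lay close together, with 16.1 and 18.01 CPM in fl/fl and 17.3 and 16.4 CPM in CKO on NOX_6_18. Its adjusted p was between 0.0593 and 0.103 with any 1 of the 4 libraries left out.

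Prkab2 (ENSMUSG00000038205; chromosome 3, 97658193 to 97673812, plus strand) encodes a regulatory beta subunit of the energy sensor AMP-activated protein kinase. It had 28.3 and 25.6 CPM in fl/fl and 48.4 and 47.9 CPM in CKO, and was again lowest in the fl/fl libraries on NOX_6_18 among the 8 (39.3 to 48.5 CPM on vehicle). The log2 fold change was 0.84 ± 0.09 (SE; adjusted p = 0.0345).

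Galnt16 (ENSMUSG00000021130; chromosome 12, 80518277 to 80630972, plus strand) belongs to the transferases that start mucin-type O-glycosylation. It had 38.7 and 38.3 CPM in fl/fl and 20.8 and 17.7 CPM in CKO, with a log2 fold change of -0.999 ± 0.10 (SE; adjusted p = 0.0277). Ccnc (ENSMUSG00000028252; chromosome 4, 21727701 to 21759922, plus strand) encodes cyclin C, a part of the Mediator kinase module. It had 18.4 and 20.5 CPM in fl/fl and 8.09 and 9.21 CPM in CKO, with a log2 fold change of -1.17 ± 0.13 (SE; adjusted p = 0.048). For both genes the CKO libraries on NOX_6_18 were the lowest of the 8 WAT libraries. On vehicle Galnt16 was also lower in CKO, at 38.45 and 41.33 CPM of the library total against 55.68 and 55.74 in fl/fl. Ccnc had 21.59 and 20.97 in CKO and 22.34 and 19.11 in fl/fl there.

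Galnt16, Prkab2 and Ccnc passed the test by a small margin: with the replicate number as a block their adjusted p was 0.0982, 0.0982 and 0.189, and with only the 4 libraries compared in the fit it was 0.0841, 0.0796 and 0.0843. Each of them also lost the call without CKO library 2, without fl/fl library 1 or without fl/fl library 2, and Prkab2 and Ccnc also without CKO library 1. Of the 9 called genes, 6 (66.7%) have an exon that overlaps an exon of another gene, against 32.3% of all fitted genes, and the part of such overlaps in the counts was not tested beyond the sum given for B3gnt2. Those with an overlap are B3gnt2, Gm28048, Rab22a, Galnt16, Prkab2 and Ccnc.

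**Figure D4:**
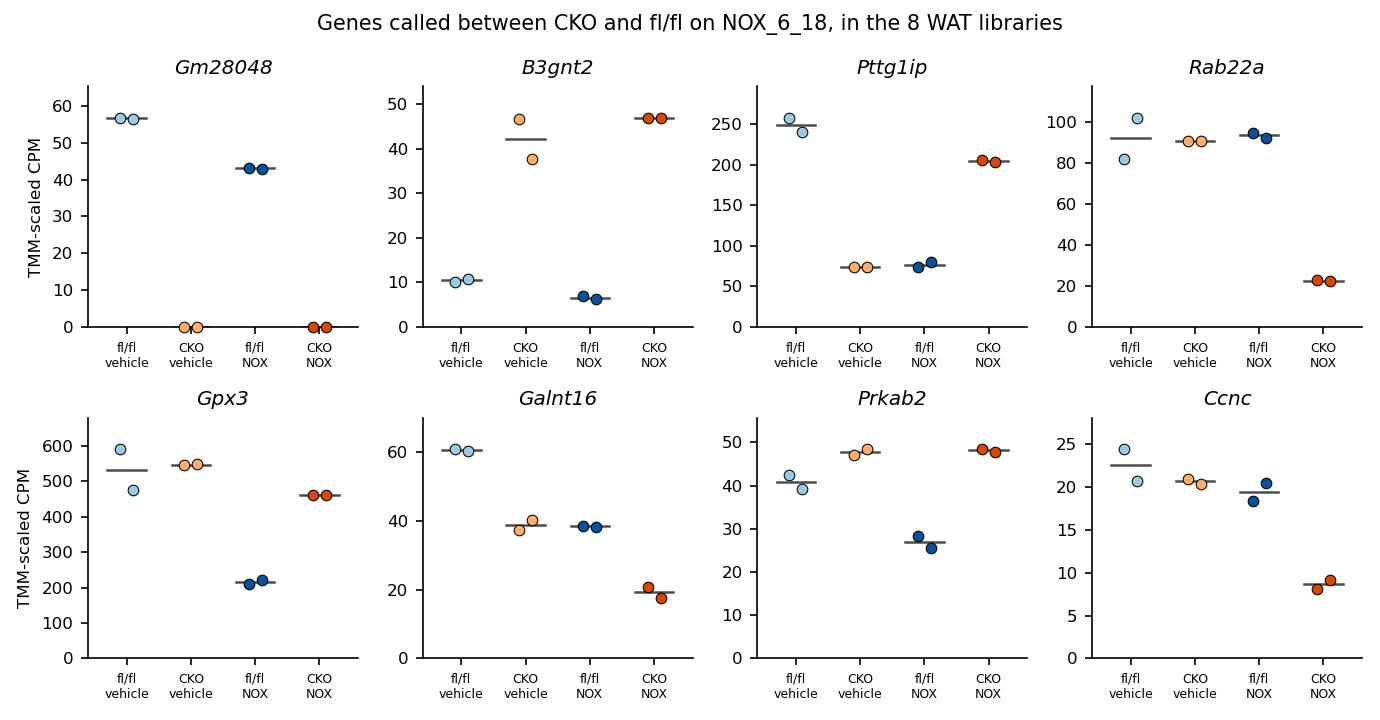
The 8 named called genes in the 8 WAT libraries. Each point is 1 library in TMM-scaled CPM, bars are group means, each axis starts at 0, and NOX stands for NOX_6_18. These genes were picked by the test between the groups on NOX_6_18, which do not overlap for any of the 8. Without such a choice, the groups did not overlap for 32.4% of the 13458 genes at 5 CPM or more in both. For Pttg1ip the order of the genotypes on vehicle is the opposite.

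Because fewer than 20 genes were called, the 12 genes each way with the smallest unadjusted p that did not pass were also listed, among genes at 5 CPM or more in the higher group whose groups did not overlap. These 24 were chosen for not passing the edgeR test. DESeq2 called 17 of them and limma-voom 2, and edgeR called 3 with a robust prior and 2 with the fl/fl vehicle libraries left out. Among the 12 higher in CKO, Abi1, a component of the actin-nucleating WAVE complex, had 97.4, 92.6, 133 and 143 CPM (log2 fold change 0.54 ± 0.07, SE; adjusted p = 0.0923). Pik3ca, the catalytic alpha subunit of phosphoinositide 3-kinase, had 63.1, 56.9, 82.4 and 86.8 CPM. Pitpna, a phosphatidylinositol transfer protein, had 192, 182, 258 and 274 CPM. For these 3 genes the fl/fl libraries on NOX_6_18 were the lowest group of WAT.

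Tollip, an adaptor that restrains Toll-like receptor signalling, had 101, 102, 138 and 140 CPM (log2 fold change 0.45 ± 0.07, SE; adjusted p = 0.283). Azi2, an adaptor of the kinase TBK1, had 34.4, 37.8, 51.0 and 54.7 CPM. Noct, a circadian phosphatase known from lipid metabolism, had 58.7, 53.2, 74.3 and 81.5 CPM. The zinc finger gene Zfp180 had the largest fold change of the 12, with 6.53 and 4.21 CPM in fl/fl and 24.2 and 25.1 CPM in CKO, and the CKO replicates on vehicle had 23.1 and 9.21 CPM.

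Among the 12 lower in CKO, Gda, the guanine deaminase of purine breakdown, had 357, 360, 272 and 268 CPM, a small difference with little spread (log2 fold change -0.41 ± 0.05, SE; adjusted p = 0.0875). Tgfbrap1, a subunit of the endosomal CORVET tethering complex, had 78.2, 70.8, 46.4 and 42.6 CPM, and Tbc1d5, a Rab GTPase-activating protein of the retromer pathway, had 54.3, 55.2, 36.2 and 35.1 CPM. Tbc1d5 had a step of like size on vehicle, at 56.1 and 62.4 CPM in fl/fl and 36.3 and 35.3 CPM in CKO. Spcs1, a subunit of the signal peptidase, had 69.8, 67.4, 43.3 and 42.5 CPM. Mlx, the partner of the glucose-responsive factor ChREBP, had 19.0, 16.3, 9.88 and 9.68 CPM, and Snrk, a kinase related to AMP-activated protein kinase, had 137, 105, 79.8 and 60.1 CPM. Mdh1, the cytosolic malate dehydrogenase, had 80.3, 78.7, 57.0 and 62.6 CPM.

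Some genes were on in some of the libraries on NOX_6_18 and off in others. Between the 2 fl/fl libraries 26 genes had 0 counts in one and at least 50 in the other, between the 2 CKO libraries 28, and between libraries of different genotype 27 to 37. The most highly counted of the 6 genes at 0 in both libraries of one genotype and at 50 or more in both of the other was Fam177a, a gene of little-known function. It had 0 and 0 counts in fl/fl and 2268 and 1948 counts in CKO, at least 1360-fold higher in CKO when 3 counts over the fl/fl group are taken as the floor, which covers counting error only. The gene was not called (adjusted p = 1), since the CKO replicates on vehicle had 0 and 38.3 CPM and entered the same estimate of spread. In WAT on vehicle the fl/fl replicates had 30.8 and 33.08 CPM of the library total, so that the gene was not off in that fl/fl group. With only the 4 libraries compared in the fit its adjusted p was 0.000869, and in DESeq2 it was 1.5e-10. In liver, the replicates on NOX_6_18 had 0 and 10.7 CPM in fl/fl and 0 and 11.3 CPM in CKO.

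Steps between replicates of 1 genotype were present for other genes on the lists below. Bcl2l1, which encodes the survival factor Bcl-xL, had 24.98, 26.1, 27.7 and 63.0 CPM. Pmp22, a myelin protein also made by fibroblasts, had 158, 299, 298 and 301 CPM. Insr, the insulin receptor, had 123, 124, 77.0 and 123 CPM. In each of them 1 library stood apart and the other 3 lay close together.

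Gene lists for the cell types and pathways of adipose tissue were then counted in the same fit. Over 50 lists with 653 fitted genes, 0 genes were called by edgeR, DESeq2 or limma-voom. At an unadjusted p under 0.05 there were 11 genes (1.68%, against 2.39% of all genes). The medians of the lists ran from -0.20 (replication histones, 10 genes, several of them under 1 CPM) to 0.11 (neuronal and Schwann cell genes), beside -0.0005 over all genes. For 571 of the 653 genes the 95% interval lay within a 2-fold change in either direction.

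No gene of the macrophage lists passed the test. Of 20 pan-macrophage genes 0 were called, their median log2 fold change was -0.0006, and all 20 intervals lay within a 2-fold change. Their summed level was 9387 and 9453 CPM in fl/fl and 9362 and 9435 CPM in CKO. Cd68, a lysosomal protein of macrophages, had 346, 364, 342 and 355 CPM. The largest difference of the list was that of Fcgr3, an activating IgG receptor, with 169, 212, 162 and 156 CPM (log2 fold change -0.26 ± 0.12, SE; adjusted p = 1).

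The 18 genes of lipid-associated macrophages, the cells that clear dying adipocytes, had a median of -0.03, 0 calls and 18 intervals within a 2-fold change. Gpnmb, a glycoprotein of such cells, had 503, 493, 455 and 506 CPM, and the groups overlapped. Lgals3, which encodes galectin-3, had 408 and 407 CPM in fl/fl and 359 and 345 CPM in CKO. Both CKO libraries were lower, with a log2 fold change of -0.21 ± 0.06 (SE; unadjusted p = 0.00522, adjusted p = 1). Of 16 genes of resident and alternatively activated macrophages, 0 were called, with a median of 0.00. Clec10a, a lectin of such cells, had 143, 171, 119 and 139 CPM, and Timd4, a phosphatidylserine receptor of resident macrophages, had 13.4, 14.1, 17.1 and 15.4 CPM. The 17 lysosomal genes had a median of -0.01 and 17 intervals within a 2-fold change.

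The listed inflammatory genes did not pass the test either. Of 16 cytokine and inflammation genes 0 were called (median -0.02), and 1 had an unadjusted p under 0.05. This was Tnfaip3, which encodes the ubiquitin-editing brake on NF-kB signalling known as A20, with 737 and 747 CPM in fl/fl and 1342 and 1374 CPM in CKO. The groups did not overlap, and the log2 fold change was 0.87 ± 0.24 (SE; unadjusted p = 0.00608, adjusted p = 1). The CKO replicates on vehicle had 1341 and 726 CPM, so that both levels occurred within a group. With only the 4 libraries compared in the fit, which leaves that group out, its adjusted p was 0.000562. Nos2, the inducible nitric oxide synthase, had 10.3, 11.4, 12.2 and 13.1 CPM. Of 20 chemokines and receptors (median -0.02), 10 MHC class II genes (median -0.01) and 15 interferon-induced genes (median -0.04), 0 were called, and 0 had an unadjusted p under 0.05.

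Lipid and adipocyte genes had medians close to that of all genes. The 16 adipocyte genes had a median of -0.04 and 16 intervals within a 2-fold change, with Adipoq (adiponectin) at 11.5, 12.4, 10.9 and 12.3 CPM and Lipe (hormone-sensitive lipase) at 70.1, 68.6, 77.3 and 74.1 CPM. The medians of the 16 genes of fatty acid and triglyceride synthesis, 13 of cholesterol efflux, 15 of cholesterol synthesis, 15 of fatty acid oxidation and 12 of insulin signalling lay between -0.02 and 0.02, with 0 calls. Soat1, which esterifies cholesterol, had 80.6, 81.6, 87.1 and 87.2 CPM, and both CKO libraries lay above both fl/fl libraries (adjusted p = 1). The 12 thermogenic genes were too scarce to be compared closely: they summed to 50.5, 48.1, 51.5 and 46.7 CPM, and 2 of 12 intervals lay within a 2-fold change. Tmem26, a beige adipocyte marker, had 2.88, 3.11, 1.75 and 2.16 CPM (log2 fold change -0.62 ± 0.22, SE; unadjusted p = 0.0242, adjusted p = 1).

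Listed genes of stromal and other resident cell types did not pass the test. The 20 fibroblast and matrix genes had a median of -0.00 and 20 intervals within a 2-fold change, and Col3a1 had 4410, 4410, 4428 and 4509 CPM (log2 fold change 0.02 ± 0.03, SE; 95% interval -0.06 to 0.10). The 14 endothelial genes had a median of 0.02, with Pecam1 at 357, 358, 376 and 369 CPM. The 11 adipose progenitor genes, 10 mesothelial genes and 11 smooth muscle and pericyte genes had medians from -0.03 to 0.02, and 0 were called.

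Many intervals of T and NK cell genes and of neutrophil genes reached beyond a 2-fold change. The 15 T and NK cell genes summed to 41.8, 40.9, 36.3 and 42.3 CPM, with a median of -0.16 and 8 of 15 intervals within a 2-fold change. The 10 B and plasma cell genes summed to 277, 321, 331 and 285 CPM and the 11 fitted neutrophil genes to 159, 170, 162 and 167 CPM. Intervals within a 2-fold change numbered 10 of 10 for B and plasma cell genes, 6 of 11 for neutrophil genes and 8 of 9 for mast cell genes. S100a9, a calcium-binding protein of neutrophils, had 2.75, 3.90, 4.996 and 4.31 CPM. Hdc, the histidine decarboxylase of mast cells, had 32.7, 32.5, 39.1 and 34.0 CPM. None of these genes was called.

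Genes of the testis and epididymis, which are no part of WAT, were present in all 4 libraries at like levels. The 14 spermatid genes summed to 1042, 1078, 1072 and 1082 CPM and the 14 spermatocyte genes to 724, 737, 725 and 729 CPM, with medians of 0.03 and -0.01. The 8 Leydig cell genes summed to 294, 307, 279 and 297 CPM, and the 10 epididymal genes to 1149, 1140, 1116 and 1121 CPM. Prm2, a sperm protamine, had 214, 226, 223 and 224 CPM, and Cyp17a1, an androgen-making enzyme of Leydig cells, had 25.8, 28.1, 26.1 and 24.7 CPM. None of these genes was called between genotypes on NOX_6_18.

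Listed genes of cell stress, rhythm and growth did not pass the test. The 18 immediate early genes, which rise on handling of tissue, summed to 20310, 20380, 19870 and 20890 CPM (median -0.00), and all 18 intervals lay within a 2-fold change. Of 13 clock genes, Tef, an output factor of the clock, had 135, 135, 159 and 169 CPM (log2 fold change 0.29 ± 0.09, SE; unadjusted p = 0.0116, adjusted p = 1). All 13 mitochondrially encoded genes had a lower mean in CKO, with a median of -0.07, and mt-Nd4l, a subunit of complex I, had 472, 466, 432 and 432 CPM. None was called, most of these genes are transcribed together, and the 16 nuclear genes of oxidative phosphorylation had a median of 0.02. Of the 16 cell cycle genes, 14 had a higher mean in CKO, with a median of 0.05 beside -0.0005 over all genes. Of the 16, 0 were called and 0 had an unadjusted p under 0.05, and their shared direction was not tested.

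The same comparison on vehicle was set beside these values, within the same fit. On vehicle 9529 genes (36.8%) were called between genotypes, 6313 higher in CKO (24.4%) and 3216 lower (12.4%). The difference between the contrasts was tested as an interaction, and 6547 genes (25.3%) had a genotype difference on NOX_6_18 that differed from the one on vehicle. The log2 fold change (CKO minus fl/fl) was more positive on NOX_6_18 than on vehicle for 1737 of them (6.71%) and more negative for 4810 (18.6%). With library totals in place of TMM factors the split was 789 and 5517, and the median interaction of all genes moved from -0.11 to -0.27. The count of 1737 fell to between 917 and 985 with any 1 of the 4 libraries on NOX_6_18 left out, to 1156 without CKO library 2 on vehicle, and to 216 with a 2-fold minimum. The median log2 fold change of all genes was 0.10 on vehicle. The fl/fl libraries on vehicle stood apart from the other WAT libraries in their scaling factors, at 0.913 and 0.921.

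In the interaction, 17 of 18 genes of lipid-associated macrophages were called upwards, beside 6.71% of all fitted genes. Their median log2 fold change was -1.14 on vehicle and -0.03 on NOX_6_18. Gpnmb had 1505 and 1473 CPM in fl/fl and 467 and 456 CPM in CKO on vehicle (interaction log2 fold change 1.64, adjusted p = 3.19e-06). Other lists with a negative median on vehicle, at -0.51 for pan-macrophage, -0.47 for lysosomal, -0.77 for fibroblast, -0.45 for endothelial and -0.74 for mast cell genes, were at -0.0006, -0.01, -0.00, 0.02 and -0.01 on NOX_6_18. Their interaction calls were 15 up and 1 down of 20, 11 up of 17, 17 up and 2 down of 20, 10 up of 14, and 4 up of 9.

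Lists of testis and epididymis went the other way, the direction in which 18.6% of all fitted genes were called. All 14 spermatid and all 14 spermatocyte genes, 7 of 8 Leydig cell genes and all 10 epididymal genes were called downwards in the interaction, since on vehicle their medians were 4.90, 6.01, 5.55 and 1.84. Hepatocyte, neutrophil and erythroid genes, with medians of 2.09, 1.70 and 1.505 on vehicle, had 7 of 16, 4 of 11 and 6 of 9 members called downwards, and 1 hepatocyte gene was called upwards. Prm2 had 9.74 and 7.06 CPM in fl/fl and 234 and 222 CPM in CKO on vehicle, and its 4 libraries on NOX_6_18 were at the CKO level. On vehicle the 14 spermatid genes summed to 40.2 and 33.4 CPM in fl/fl and to 1144 and 1099 CPM in CKO. Testis transcripts thus differed with genotype on vehicle. The part of this difference in the interaction calls, those of the macrophage and stromal lists included, was not tested.

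**Figure D5:**
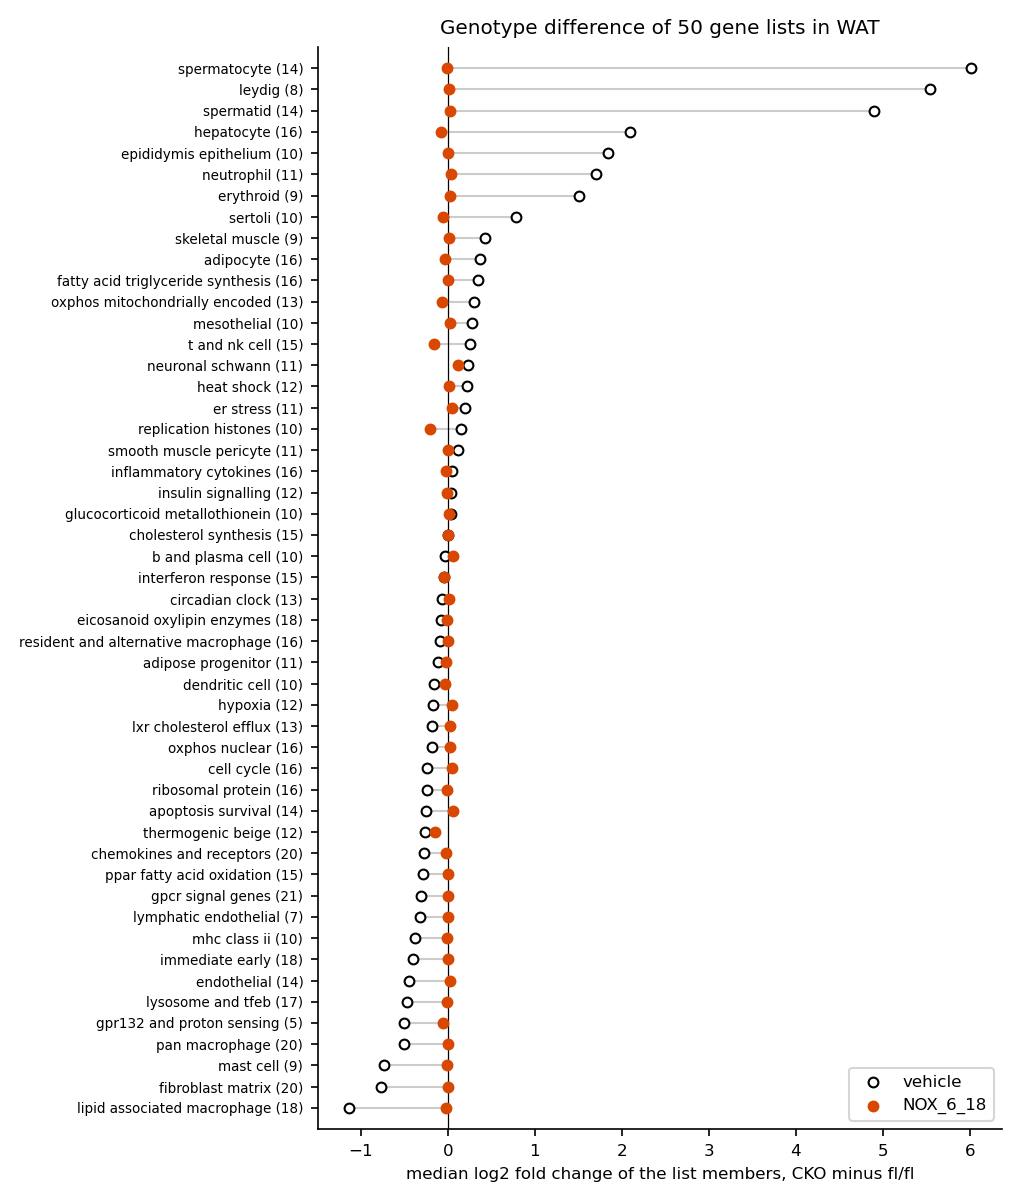
Median log2 fold change (CKO minus fl/fl) of the 50 gene lists in WAT, with the number of fitted genes in brackets. Filled points are the comparison on NOX_6_18 and open points the one on vehicle. The filled points lie between -0.20 and 0.11, while the open points run from -1.14 to 6.01.

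In liver, the comparison of CKO and fl/fl on NOX_6_18 called 7 of 19515 genes (0.0359%; 5 higher in CKO, 0.0256%, and 2 lower, 0.0102%). Of the 9 genes called in WAT, all were fitted in liver and 0 were called there. In the test of the difference between tissues, 1 of 26751 genes (0.00374%) was called. This was Rnf13, an endosomal ubiquitin ligase, with 55.9, 52.3, 58.1 and 57.7 CPM in WAT and 56.6, 61.02, 30.4 and 29.3 CPM in liver, a difference of the log2 fold changes of 1.07 (adjusted p = 0.0116). DESeq2 called 51 genes in this test. For the 8 named genes called in WAT, the adjusted p of the difference between tissues ran from 0.061 (Gpx3) upwards.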

How the data were processed

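Each library has a deposited table of unnormalized counts of reads in genes. The submitters' processing notes list HISAT, featureCounts 1.5.0, DESeq 1.8.3 and GRCm38 but not what each was used for, and libraries were made with a KAPA stranded kit per the labels' protocols. The sources used here do not give the annotation release or the strand setting, so reads of overlapping or antisense genes may be counted for either. Of 55421 gene identifiers 99.7% matched GENCODE M21.

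Counts were tested with edgeR 4.0.16 (R 4.3.3; glmQLFit, TMM, filterByExpr by group, all 8 WAT libraries in 1 fit, 1 coefficient per group, Benjamini-Hochberg adjusted p under 0.05, limma 3.58.1 and DESeq2 1.42.0 as alternatives). SE values were obtained by dividing the size of the log2 fold change by the root of F. CPM values are TMM-scaled unless given per library total. The replicate numbers are not stated to pair libraries.

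The comparison and the gene lists were chosen with earlier results of these data known, and no list test was made. Named genes are Gpr132, Lyz2, the called genes, the 12 each way with the smallest p below a call (at least 5 CPM, groups apart), 2 per list and 5 each way per interaction, of which part is printed. Gpr4, Adgre1, Cd68, Gpnmb, Adipoq, Fabp4, Col1a1, Col3a1, Prm1 and Prm2 were added as list members. A called gene is not reported here.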

Additional observations from a re-analysis of the deposited data

Results flagged for a closer look

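The genotype difference on NOX_6_18 was tested against the one on vehicle in WAT, and 6547 genes differed (edgeR adjusted p under 0.05). Lyz2 was one of them, with an interaction log2 fold change of 0.72 (adjusted p = 0.000345), because on vehicle it had 3720 and 3353 CPM in fl/fl and 2228 and 2054 CPM in CKO. Most of the genes called on NOX_6_18 also had a genotype difference that was not the same on vehicle, although they were picked for a call in a term of this test. The interaction was 0.82 for B3gnt2 (adjusted p = 0.0104), which was higher in CKO on both treatments. It was 3.16 for Pttg1ip (adjusted p = 3.35e-07), whose genotypes changed order. It was -2.03 for Rab22a (adjusted p = 2.54e-05), -1.04 for Ccnc (adjusted p = 0.00365), 1.06 for Gpx3 (adjusted p = 0.000617) and 0.61 for Prkab2 (adjusted p = 0.00752), for which no difference was called on vehicle.

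Between WAT and liver on NOX_6_18, the genotype difference of 1 gene differed by the test, Rnf13, by 1.07 (adjusted p = 0.0116), since in liver it was called lower in CKO (log2 fold change -0.98, adjusted p = 0.00716) and in WAT its log2 fold change was 0.10.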

How the results depend on the processing

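The 9 calls on NOX_6_18 became 46 in DESeq2, all 9 among them, and 3 when genes with exon overlap were left out, a choice made after seeing the data that tests fewer genes. Without 1 library they ran from 5 to 23: 17 without CKO library 1, 5 without CKO library 2, 23 without fl/fl library 1 and 7 without fl/fl library 2, of which 4 or 5 were among the main 9. A group left with 1 library was assumed to vary like the others. With the replicate number as a block there were 5 calls, all among the 9. The labels do not state a pairing, and the replicate differences of the groups correlated at 0.21 on NOX_6_18 and from -0.11 to 0.10 over the other pairs of WAT groups. Gm28048, Pttg1ip and Rab22a were called under every alternative that tested them, and B3gnt2 too except in the sum with Gm28048, at -0.0785. RLE factors, library totals, no filter, a stricter filter, limma-voom, a robust prior (added later), only the groups compared, the fl/fl vehicle libraries left out and a 2-fold minimum gave 7 to 13 calls.

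Without 1 library, values near 0 changed sign: they ran from -0.0066 to 0.0055 for Lyz2 (0.0031 without fl/fl library 1), -0.0618 to 0.0847 for Gpr4, -0.0612 to 0.012 for Cd68, -0.13 to 0.024 for Gpnmb, -0.13 to 0.040 for Adipoq and -0.017 to 0.062 for Prm2. Without overlapping genes Lyz2 was at 0.0015. The 1 call of the tissue interaction became 6 with no filter, 51 in DESeq2, 2 in limma-voom, 10 with only the groups compared, 5 without the fl/fl vehicle libraries and 4 to 11 without 1 library, Rnf13 always among them. The cause of these changes was not tested.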
